A study of Mus musculus with 6 samples.

Results

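CXC chemokines and their receptors were followed through 10 genes of the 23930 in the table, 7 ligands (Cxcl1, Cxcl2, Cxcl3, Ppbp, Cxcl9, Cxcl10 and Cxcl16) and 3 receptors (Cxcr3, Cxcr4 and Cxcr6). The genes were chosen by name, as neutrophil-attracting, interferon-induced and other family members, with earlier results of these data known. Counts among them therefore describe these 10 genes and do not test the family. Transcripts came from CD31-positive cells sorted by flow cytometry from subcutaneous Lewis lung carcinoma (LLC) tumours, a mouse lung cancer line grown in C57/Bl6 mice and taken 2 weeks after injection. The tumour cells overexpressed BMP9, a ligand of the bone morphogenetic protein family, in 3 libraries (replicates 4, 5 and 6), and were control LLC cells in the other 3 (replicates 1, 2 and 3). BMP9 was thus raised in the injected cells and not by an allele of the host, and the labels give neither the vector nor whether the lines were clones, what the control cells carried, the age or sex of the mice, or whether each library was a separate animal. The p-values therefore measure the spread between these libraries, which may be technical. Levels are given in RPM, a read number brought to the same total in each library, from a panel that amplifies a short segment of each gene, so levels of different genes are not compared.

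CXC chemokines are small secreted proteins that direct leukocytes along gradients through receptors coupled to G proteins. Those with a glutamate-leucine-arginine motif before the first cysteine, among them the products of Cxcl1, Cxcl2, Cxcl3 and Ppbp, attract neutrophils through Cxcr2 and promote vessel growth. Cxcl9 and Cxcl10 lack that motif, are induced by interferons, attract T and NK cells through Cxcr3 and restrain vessel growth. Cxcl16 is made as a membrane-bound protein that can be shed, and its receptor is Cxcr6, while Cxcr4 is the receptor of Cxcl12.

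The libraries held 1974510 to 28380957 reads in the BMP9 overexpression group and 1321762 to 4583428 in the control group. Gdf2, the gene of BMP9, had 7 reads over the 3 BMP9 libraries, 5 of them in replicate 6, and 0 over the 3 control libraries. The BMP9 libraries held 34765122 reads in total and the control libraries 7904976, so counts this low do not show a difference. The sorted cells are also not the cells that were engineered. Pecam1, the gene of the sort marker CD31, was at 247 to 353 RPM in BMP9 libraries and 363 to 532 RPM in control libraries. Of the 18 endothelial markers, Pecam1 included, 4 passed the filter on low levels given below. The other 17 together reached 32.9 to 53.3 RPM in BMP9 libraries and 23.998 to 65.1 RPM in control libraries. Among the 4, Flt1 rose, averaging 20.5 RPM in BMP9 libraries and 5.36 RPM in control libraries (log2 fold change 1.83, limma-trend adjusted p = 0.0058). Kdr fell, averaging 3.59 RPM against 11.5 RPM (-1.32, limma-trend adjusted p = 0.025). Kdr reached 5 RPM in control libraries alone, so its direction was fixed by the filter. Cdh5, the VE-cadherin that defines endothelial junctions, was at 3.18 to 8.17 RPM in BMP9 libraries and 4.58 to 13.5 RPM in control libraries. Sox17, an endothelial transcription factor, was at 0 in control libraries and had 1 read in BMP9 replicate 6. Leukocytes can carry CD31 as well. The 16 T and NK cell markers summed to 1060 to 1914 RPM in BMP9 libraries and 9980 to 10312 RPM in control libraries. The 15 measured macrophage and monocyte markers summed to 17935 to 23982 RPM in BMP9 libraries and 4449 to 7063 RPM in control libraries. In such bulk samples fewer cells of a type and less RNA per cell cannot be told apart.

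All 10 genes reached the filter of 5 RPM in at least 3 libraries, and 8 passed the test at an adjusted p of 0.05, 6 higher and 2 lower in BMP9 libraries (limma-trend). Over all 9460 tested genes 35.2% passed, 12.7% higher and 22.5% lower. The groups did not overlap for 7 of the 10 genes, 6 of them higher and 1 lower, against 48.1% of all tested genes, 16.8% higher and 31.2% lower. Cxcl1, Cxcl3 and Ppbp were at 5 RPM or more in BMP9 libraries alone, so they could only pass the filter by being higher there. The median log2 fold change of the 10 genes was 1.13, that of all tested genes -0.24. With TMM factors, a scaling that centres most genes on no change, the median of all tested genes was 0.00, and 1629 of 3012 calls over all genes were higher, in place of 1200 of 3330. Folds of this comparison should be read against that shift.

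**Figure D1:**
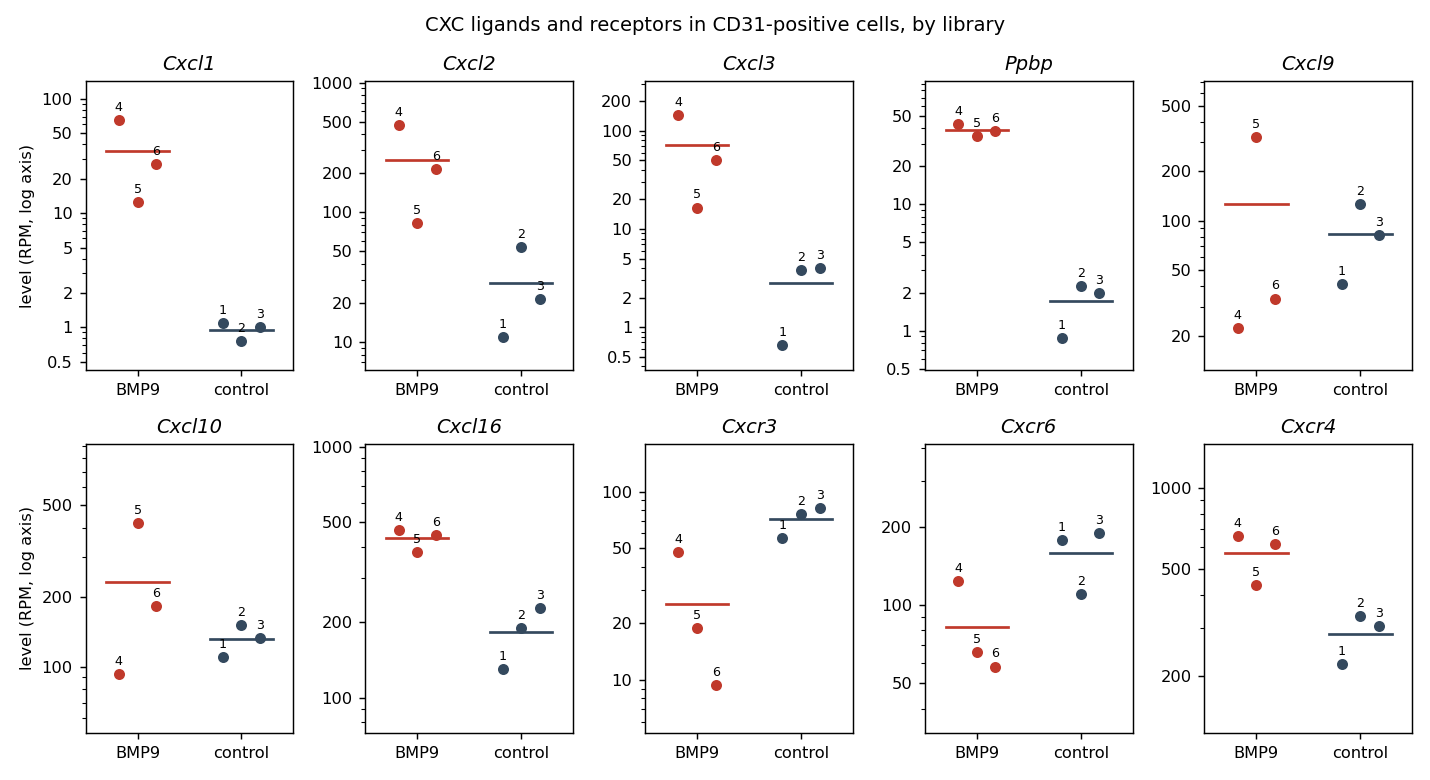
Level of each of the 10 genes (RPM, log axis) in the 3 BMP9 overexpression libraries, left, and the 3 control libraries, right, with replicate numbers beside the points and lines at the means. Groups are apart for Cxcl1, Cxcl2, Cxcl3, Ppbp, Cxcl16, Cxcr3 and Cxcr4 and overlap for Cxcl9, Cxcl10 and Cxcr6.

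The ligands Cxcl1, Cxcl2 and Cxcl3 rose in BMP9 libraries. They lie in 1 cluster on chromosome 5 together with Ppbp and Pf4 (coordinates from GENCODE M21 on mm10). Cxcl1 (90891241 to 90893115), a main neutrophil attractant of mouse tissue, was at 65.3, 12.5 and 26.7 RPM in BMP9 replicates 4, 5 and 6, against 1.09, 0.757 and 1.0 RPM in control replicates 1, 2 and 3. Every BMP9 library was over 10 times the highest control library. The log2 fold change was 3.91 (SE 0.49, adjusted p = 3.4e-05), and the control levels rest on 5, 1 and 2 reads. Cxcl2 (90903871 to 90905938), which macrophages release early in inflammation, was at 467, 83.2 and 215 RPM in BMP9 libraries and at 10.9, 53.7 and 21.5 RPM in control libraries. The lowest BMP9 library lay above the highest control library by the smallest ratio of these 3 genes, and the fold change was 3.06 (SE 0.56, adjusted p = 0.00069). Cxcl3 (90786103 to 90789600), a close relative, was at 146, 16.6 and 49.9 RPM in BMP9 libraries, against 0.655, 3.78 and 4.0 RPM in control libraries. Its fold change was 3.90 (SE 0.62, adjusted p = 0.00023).

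Within the BMP9 group all 3 ligands were highest in replicate 4 and lowest in replicate 5. The highest library exceeded the lowest 5.24-fold for Cxcl1, 5.61-fold for Cxcl2 and 8.84-fold for Cxcl3. The 11 measured dissociation response genes, immediate-early and heat shock genes that rise while tissue is taken apart, summed to 6832, 4943 and 6009 RPM in BMP9 replicates 4, 5 and 6 and to 3965, 4884 and 3897 RPM in control replicates 1, 2 and 3. Replicate 4 was highest and 5 lowest in the BMP9 group here as well. In the control group replicate 2 was highest for these genes and for Cxcl2, but it was lowest for Cxcl1, and Cxcl3 was highest in replicate 3. Of these genes 6 rose and none fell, with a median of 1.11, led by Atf3, a stress-induced transcription factor (log2 fold change 2.43, adjusted p = 3.1e-05). Set against Itgam, the CD11b integrin of myeloid cells, Cxcl1, Cxcl2 and Cxcl3 together gave ratios of 0.183, 0.026 and 0.073 in BMP9 libraries and 0.030, 0.195 and 0.042 in control libraries. These ratios overlapped (exact two-sided permutation p = 1, the smallest possible being 0.1). Their log2 difference of 0.17 was -0.53 without BMP9 replicate 4 and 0.99 without control replicate 2, so single libraries set its sign. The sum is mostly Cxcl2, whose own ratio to Itgam overlapped. The ratio of Cxcl1 alone, a comparison chosen after the values were seen, did not overlap and was 3.20-fold higher (exact permutation p = 0.1). It was at 0.0176, 0.0029 and 0.00665 in BMP9 libraries and 0.0026, 0.00253 and 0.00158 in control libraries. The control ratios rest on 5, 1 and 2 reads of Cxcl1, and the gap from 0.0026 to 0.0029 is narrow, so the lack of overlap is not firm. The ratio of Cxcl3 alone was 2.48-fold higher and overlapped (exact permutation p = 0.5). The part of dissociation or of myeloid cell content in the rise was not tested.

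**Figure D2:**
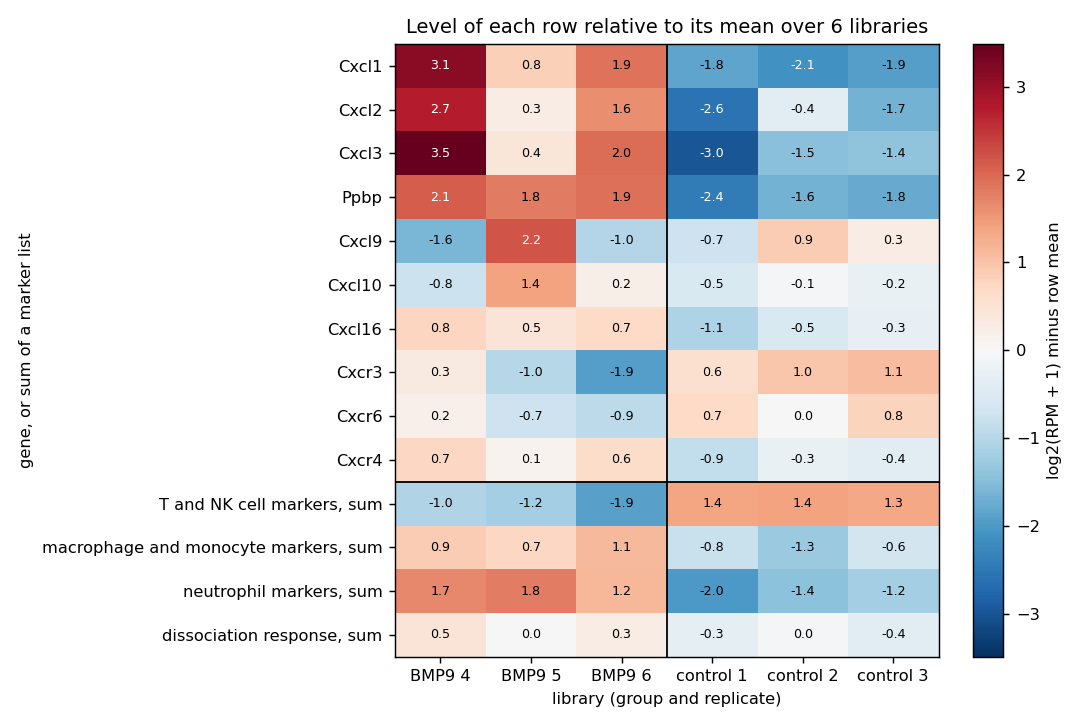
Level of each gene, and of the summed markers of 4 lists, in each library as log2(RPM + 1) minus the mean of its row over the 6 libraries, BMP9 overexpression left and control right. Cxcl1, Cxcl2 and Cxcl3 share the order replicate 4, 6, 5 within the BMP9 group, Cxcl9 and Cxcl10 the order 5, 6, 4, and Cxcr3 and Cxcr6 the order 4, 5, 6.

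The descriptions of the libraries carry an earlier or a later time stamp, taken here as that of a run, although the labels do not say what it marks. With the earlier run time stamp alone, which leaves BMP9 replicate 4 against the 3 control libraries, the log2 fold changes of Cxcl1, Cxcl2 and Cxcl3 were 5.09, 4.26 and 5.43. Leaving out BMP9 replicate 4 gave 3.31, 2.46 and 3.13, and leaving out BMP9 replicate 5 gave 4.46, 3.70 and 4.67. For Cxcl2 the value was 3.64 without control replicate 2 and 2.54 without control replicate 1, and for Cxcl3 it was 3.38 without control replicate 1. For Cxcl1 and Cxcl3 the size depends on how low levels are treated, at 2.51 and 2.88 with a pseudocount of 5, 4.31 and 4.16 with 0.5, 5.32 and 5.16 with edgeR and 5.36 and 4.92 with DESeq2. The 3 genes are paralogs, and whether any reads were assigned between them was not tested.

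The promoters of these 3 ligands are shown because the genes moved together and hold the same short element. Windows run from 250 bases before to 50 bases after the RefSeq transcription start (GRCm38.p6, the assembly of mm10), 5′ to 3′ on the strand of the gene, all on the plus strand, and capitals mark matches to the kappaB consensus bound by NF-kappaB, searched on both strands. The windows are chr5:90890995-90891294 for Cxcl1, chr5:90903649-90903948 for Cxcl2 and chr5:90785851-90786150 for Cxcl3.
Cxcl1: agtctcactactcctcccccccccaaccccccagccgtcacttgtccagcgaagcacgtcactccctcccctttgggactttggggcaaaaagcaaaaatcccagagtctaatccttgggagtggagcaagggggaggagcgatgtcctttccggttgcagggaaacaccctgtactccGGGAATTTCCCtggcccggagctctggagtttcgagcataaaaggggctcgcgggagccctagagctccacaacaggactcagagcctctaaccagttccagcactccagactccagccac
Cxcl2: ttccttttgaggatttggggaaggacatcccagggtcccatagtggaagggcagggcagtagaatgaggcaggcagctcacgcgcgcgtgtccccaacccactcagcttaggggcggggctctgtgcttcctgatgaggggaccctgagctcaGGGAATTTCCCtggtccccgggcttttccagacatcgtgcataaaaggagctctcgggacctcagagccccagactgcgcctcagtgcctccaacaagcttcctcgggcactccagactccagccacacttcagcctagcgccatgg
Cxcl3: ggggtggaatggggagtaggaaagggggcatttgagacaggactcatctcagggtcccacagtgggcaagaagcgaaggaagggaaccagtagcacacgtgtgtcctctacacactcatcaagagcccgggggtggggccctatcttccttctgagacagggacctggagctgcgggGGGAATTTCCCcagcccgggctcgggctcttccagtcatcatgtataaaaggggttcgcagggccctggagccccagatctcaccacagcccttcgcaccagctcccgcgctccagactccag
Each window holds the same 11 bases, GGGAATTTCCC, as 2 overlapping kappaB matches on opposite strands. They begin 71, 97 and 73 bases before the start of Cxcl1, Cxcl2 and Cxcl3. A kappaB match was present in 4.51% of all 32851 promoter windows, and these 11 bases, read off the 3 promoters, in 14 windows (0.0426%). The 14 include the 3 promoters that the bases were read from, so this share is not a test. The match describes the letters and not binding, and the windows of Ppbp, Cxcr3, Cxcr4 and Cxcr6 held no match to this or the other motifs searched.

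Genes of the inflammatory axis listed for these ligands moved in part. The list holds cytokines, receptors, signalling adaptors, NF-kappaB proteins and feedback regulators such as Tnfaip3 and Zfp36, so not every gene in it is an inducer. Of 18 tested genes 6 rose and none fell, with a median of 0.56. Zfp36 was among the 6 (log2 fold change 0.975, limma-trend adjusted p = 0.013). One of the 6, Il1a, reached the filter through BMP9 libraries alone, so its direction was fixed by the filter. Il1a and Il1b, the interleukin 1 ligands that switch on NF-kappaB, averaged 38.5 and 1996 RPM in BMP9 libraries against 1.14 and 494 RPM in control libraries, with log2 fold changes of 3.95 and 2.06. Tlr4, the receptor of bacterial lipopolysaccharide, rose by 2.06. Of the other 12 none passed the test, and with TMM factors 9 of the 18 were higher.

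Ppbp (chromosome 5, 90768518 to 90770063), whose product is stored in platelet granules and processed to a neutrophil-activating peptide, rose in BMP9 libraries. It was at 43.0, 34.7 and 37.8 RPM in BMP9 replicates 4, 5 and 6 and at 0.873, 2.27 and 2.0 RPM in control replicates 1, 2 and 3. The BMP9 libraries lay close together, with the highest 1.24 times the lowest, unlike Cxcl1, Cxcl2 and Cxcl3. The log2 fold change was 3.90 (SE 0.36, adjusted p = 4.6e-06), or 2.70 with a pseudocount of 5 and 4.95 with edgeR, and control levels rest on 4, 3 and 4 reads. Pf4, its neighbour in the cluster and another platelet granule chemokine that macrophages also transcribe, was at 737, 511 and 610 RPM against 62.0, 30.3 and 55.0 RPM, a fold change of 3.68 (SE 0.30). The ratio of Ppbp to Pf4 was 0.058 to 0.068 in BMP9 libraries and 0.014 to 0.075 in control libraries, and the groups overlapped (exact two-sided permutation p = 0.4). Of the 9 measured platelet and megakaryocyte markers other than these chemokines, only Itga2b, the integrin subunit of platelets, passed the filter, at an average of 27.4 RPM in BMP9 libraries and 6.08 RPM in control libraries. The 9 markers summed to 22.3 to 43.8 RPM in BMP9 libraries and 4.54 to 10.04 RPM in control libraries. Among them, Gp6 was at 0 in all 6 libraries, Gp9 in the BMP9 libraries and Gp1bb and Tubb1 in the control libraries. The part of platelets in the rise of Ppbp was not tested.

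Neutrophils, the target of the ligands above, are read through their own markers and receptors. The 12 neutrophil markers summed to 216 to 337 RPM in BMP9 libraries and 23.6 to 42.0 RPM in control libraries, and all 5 that were tested rose, including S100a9 and Mmp8. S100a8, another of the 5, was at 5 RPM or more in BMP9 libraries alone and so could only be tested by being higher there. The other 7 of the 12 did not reach the filter. Mpo was at 0 in all 6 libraries, and Ly6g, Ngp and Elane were at 0 in the control libraries. In BMP9 replicates 4, 5 and 6, Ly6g had 1, 1 and 10 reads, Elane 0, 1 and 12, and Ngp 1, 98 and 3. Cxcr2, the receptor of Cxcl1, Cxcl2, Cxcl3 and the processed Ppbp product, stayed below the filter, with 9, 30 and 131 reads (4.56, 6.80 and 4.62 RPM) in BMP9 replicates 4, 5 and 6 and 9, 1 and 6 reads (1.96, 0.757 and 3.0 RPM) in control replicates 1, 2 and 3. All BMP9 libraries were above all control libraries, but Cxcr2 did not pass when every gene was tested without the filter (log2 fold change 1.18, SE 0.42, adjusted p = 0.13). Cxcr1 had at most 0.907 RPM in a BMP9 library and 0.218 RPM in a control library. Without the filter it did not pass either (log2 fold change 0.57, limma-trend adjusted p = 0.059).

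The interferon-induced ligands Cxcl9 and Cxcl10 did not pass the test. Cxcl9 (chromosome 5, 92321347 to 92328079), an attractant of activated T cells, was at 22.3, 322 and 33.8 RPM in BMP9 replicates 4, 5 and 6 and at 41.2, 127 and 82.5 RPM in control replicates 1, 2 and 3. BMP9 replicate 5 was above all other libraries and the other 2 BMP9 libraries were below all control libraries, so the group held the extremes on both sides. The log2 fold change was -0.26 (SE 0.70, 95% interval -1.75 to 1.22, adjusted p = 0.79), an interval that covers a change of over 2-fold either way. Cxcl10 (chromosome 5, 92346638 to 92348889), which shares the receptor, was at 93.2, 420 and 183 RPM in BMP9 libraries and at 110, 151 and 134 RPM in control libraries. BMP9 replicate 5 was again the highest and replicate 4 the lowest. Art3, which spans this locus on the opposite strand, had at most 1.52 RPM in BMP9 libraries and 1.5 RPM in control libraries. The log2 fold change of Cxcl10 was 0.56 (SE 0.41, 95% interval -0.31 to 1.43, adjusted p = 0.3).

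Single libraries decided these values. Without BMP9 replicate 5, Cxcl9 was lower (-1.43, adjusted p = 0.017) and Cxcl10 was at 0.00, and without BMP9 replicate 4 Cxcl10 was higher (1.08, adjusted p = 0.016) and Cxcl9 was at 0.47 (adjusted p = 0.59). With the earlier run time stamp alone Cxcl9 was at -1.72 (adjusted p = 0.028) and Cxcl10 at -0.48. DESeq2 and array weights also called Cxcl10 higher (1.07 and 0.64). The ratio of Cxcl9 to Cxcl10 was 0.239, 0.766 and 0.185 in BMP9 libraries and 0.374, 0.840 and 0.618 in control libraries, and the groups overlapped (exact two-sided permutation p = 0.3).

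The promoters of Cxcl9 and Cxcl10 are shown for contrast with those of Cxcl1, Cxcl2 and Cxcl3. Windows are as above, on the minus strand at chr5:92328030-92328329 for Cxcl9 and chr5:92348840-92349139 for Cxcl10. Capitals mark the kappaB consensus and GAAANNGAA, the core of the interferon-stimulated response element, where N is any base.
Cxcl9: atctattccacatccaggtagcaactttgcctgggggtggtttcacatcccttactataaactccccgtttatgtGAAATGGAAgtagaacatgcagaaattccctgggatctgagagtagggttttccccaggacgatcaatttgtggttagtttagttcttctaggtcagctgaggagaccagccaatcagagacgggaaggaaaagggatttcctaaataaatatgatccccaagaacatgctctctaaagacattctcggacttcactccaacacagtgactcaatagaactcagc
Cxcl10: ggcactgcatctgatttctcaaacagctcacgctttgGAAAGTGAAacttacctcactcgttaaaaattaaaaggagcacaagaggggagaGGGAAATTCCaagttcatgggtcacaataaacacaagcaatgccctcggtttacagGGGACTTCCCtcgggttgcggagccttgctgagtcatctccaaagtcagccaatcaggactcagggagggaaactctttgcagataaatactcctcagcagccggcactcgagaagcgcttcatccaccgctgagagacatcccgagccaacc
Each window holds 1 match to GAAANNGAA, beginning 175 bases before the start of Cxcl9 and 213 bases before that of Cxcl10. Cxcl10 also holds 2 kappaB matches, beginning 159 and 103 bases before its start, and none of these overlaps another match. GAAANNGAA was found on either strand in 8.56% of all windows. TTCNNNGAA, the gamma-activated site and its own reverse complement, was in 8.3% of all windows and in none of the 9 windows available for the 10 genes. Of those 9, 4 held a kappaB match (Cxcl1, Cxcl2, Cxcl3 and Cxcl10) and 2 held GAAANNGAA.

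Of 12 tested genes of the interferon axis upstream of Cxcl9 and Cxcl10, 2 fell and 1 rose, with a median of -0.10. Over all tested genes 22.5% fell and 12.7% rose, so the axis was called no more often than genes in general. Ifng, the interferon gamma that T and NK cells release, averaged 27.1 RPM in BMP9 libraries against 90.7 RPM in control libraries (log2 fold change -1.83, SE 0.38, adjusted p = 0.0018). Irf8, an interferon-responsive transcription factor of myeloid cells, fell by 1.42 on the log2 scale, and Ifngr2, a chain of the receptor for interferon gamma, rose by 1.21. Cxcl11, the other ligand of Cxcr3, lies beside Cxcl10 and is annotated as a polymorphic pseudogene. It was below the filter, with 2.53, 7.71 and 4.69 RPM in BMP9 libraries and 1.75, 0.757 and 2.5 RPM in control libraries. Tested without the filter, Cxcl11 did not pass (log2 fold change 1.12, limma-trend adjusted p = 0.18).

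Cxcl16 (chromosome 11, 70453983 to 70459984), which macrophages and dendritic cells display and shed, rose in BMP9 libraries. It was at 468, 381 and 446 RPM in BMP9 replicates 4, 5 and 6 and at 130, 190 and 229 RPM in control replicates 1, 2 and 3. The groups were well apart, and the BMP9 libraries differed by no more than 1.23-fold. The log2 fold change was 1.27 (SE 0.28, 95% interval 0.68 to 1.85, adjusted p = 0.0025), and all 18 alternative settings called it, at 1.04 to 1.52. The gene overlaps Zmynd15 on the opposite strand, which was at 19.4 to 42.5 RPM in BMP9 libraries and 6.05 to 12.5 RPM in control libraries. Strand use is not given in the sources used here, so reads of a shared stretch could not be told apart. Macrophage and monocyte markers moved in the same direction, with all 12 tested members higher and a median of 2.44, though Cd163, 1 of the 12, passed the filter through BMP9 libraries alone, and Marco and C1qa were at 0 in the control libraries and at most at 0.141 and 0.68 RPM in BMP9 libraries. The part of macrophage content in the rise of Cxcl16 was not tested. Of 7 tested genes that shed or trim chemokines 3 rose and 1 fell, with a median of 0.39. Over all tested genes 12.7% rose and 22.5% fell. Mmp8 is counted both here and among the neutrophil markers above. Ctsl, a lysosomal cathepsin, rose by 3.49, Mmp8, the neutrophil collagenase, by 4.48 and Mmp12, the macrophage elastase, by 2.54, while Mmp9, a gelatinase, fell by 1.56. Adam10 and Adam17, the proteases that shed Cxcl16, were at 0.11 and 0.39 (adjusted p = 0.76 and 0.39).

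The receptors of T and NK cells, Cxcr3 and Cxcr6, were lower in BMP9 libraries. Cxcr3 (chromosome X, 101731535 to 101734269), the receptor of Cxcl9 and Cxcl10, was at 47.6, 18.8 and 9.44 RPM in BMP9 replicates 4, 5 and 6 and at 56.9, 75.7 and 81.5 RPM in control replicates 1, 2 and 3. The groups did not overlap, and BMP9 replicate 4 lay nearest to the control libraries. The log2 fold change was -1.73 (SE 0.44, 95% interval -2.66 to -0.80, adjusted p = 0.0067). Cxcr6 (chromosome 9, 123806475 to 123811760), the receptor of Cxcl16 on activated T, NK and NKT cells, was at 124, 66.0 and 58.0 RPM in BMP9 libraries and at 178, 110 and 190 RPM in control libraries. BMP9 replicate 4 lay above control replicate 2, so the groups overlapped. Its fold change was -0.98 (SE 0.33, 95% interval -1.68 to -0.29, adjusted p = 0.029).

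Neither call held within the earlier run time stamp, where BMP9 replicate 4 alone stood against the control libraries and Cxcr3 and Cxcr6 were at -0.56 (adjusted p = 0.27) and -0.32 (adjusted p = 0.55). Replicates 5 and 6 carry a later stamp with no control library, so stamp and group cannot be told apart for them. The call of Cxcr6 was lost in 10 of 18 alternatives, among them TMM (-0.73, adjusted p = 0.092), edgeR (-0.71) and DESeq2 (-0.72), and without BMP9 replicate 5 (-0.86) or 6 (-0.77) or control replicate 1 (-0.88) or 3 (-0.84), whereas that of Cxcr3 held with TMM (-1.48). Leaving out BMP9 replicate 4 put Cxcr3 at -2.31 and leaving out BMP9 replicate 6 put it at -1.21, both called. The Cxcr6 locus overlaps Fyco1 on the opposite strand, which was at 34.5 to 48.1 RPM in BMP9 libraries and 43.1 to 71.5 RPM in control libraries.

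**Figure D3:**
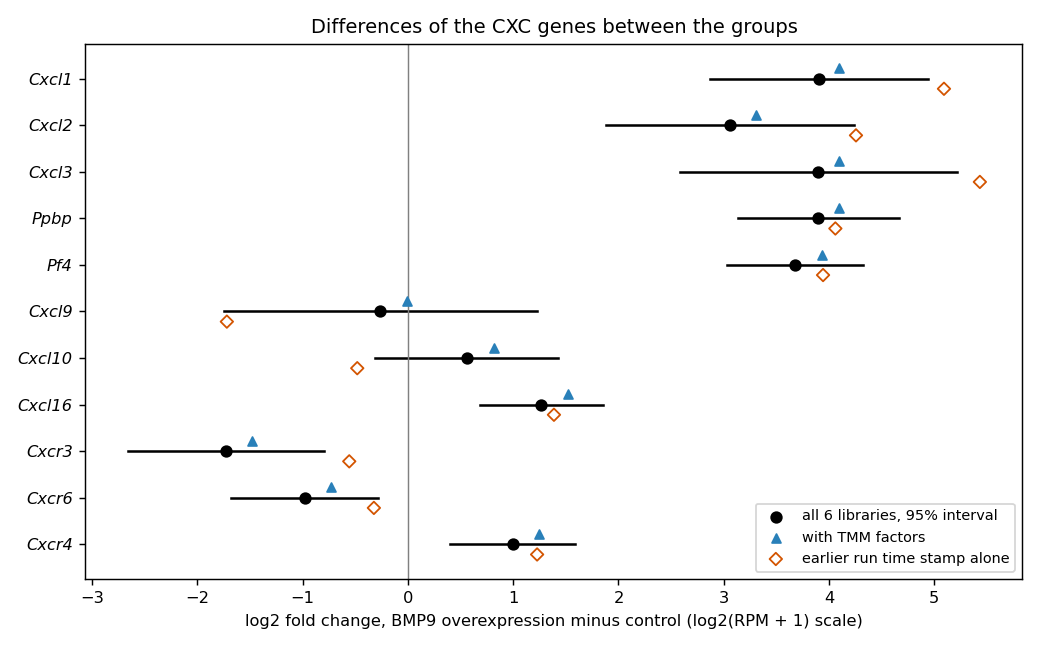
Log2 fold change of the 10 genes and Pf4, BMP9 overexpression minus control on the log2(RPM + 1) scale, with 95% intervals of the limma-trend fit (black), values with TMM factors (triangles) and with the earlier run time stamp alone (diamonds). Cxcl1, Cxcl2, Cxcl3, Ppbp and Pf4 lie at 3.06 or above. Within the earlier stamp Cxcl9 is at -1.72 and Cxcr3 and Cxcr6 are at -0.56 and -0.32.

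Markers of T and NK cells fell as well. All 16 fell, with a median of -2.85, and Klrd1 and Gzmb, of NK and cytotoxic cells, and Il2rb, an interleukin 2 receptor chain, had the smallest p-values, with log2 fold changes of -3.76, -3.02 and -3.14. The summed Cd3d, Cd3e and Cd3g, chains of the T cell receptor complex, were at 271, 258 and 246 RPM in BMP9 replicates 4, 5 and 6 and at 925, 1378 and 1245 RPM in control replicates 1, 2 and 3. Per unit of these Cd3 transcripts, Cxcr6 gave ratios of 0.455, 0.256 and 0.236 in BMP9 libraries and 0.192, 0.080 and 0.152 in control libraries. All BMP9 libraries were above all control libraries, 2.27-fold on average (exact two-sided permutation p = 0.1, the smallest possible). The direction of this ratio and its lack of overlap follow from the ranges of Cxcr6 and of the Cd3 sum. The same ratio for Cxcr3 was 0.175, 0.073 and 0.038 in BMP9 libraries and 0.062, 0.055 and 0.065 in control libraries, and the groups overlapped (exact permutation p = 0.7). Without BMP9 replicate 4 the Cxcr3 ratio was lower in BMP9 libraries by 0.19 on the log2 scale, and with all libraries it was higher by 0.38. The ratio of Cxcl16 to Cxcr6, ligand over receptor, was 3.79, 5.77 and 7.69 in BMP9 libraries and 0.735, 1.72 and 1.21 in control libraries. The difference was 4.80-fold with no overlap (exact permutation p = 0.1). Its direction and lack of overlap follow from the ranges of Cxcl16 and Cxcr6 given above. These ratios do not depend on the scaling of a library, and their size has no meaning beyond the comparison, since amplicons differ in yield.

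**Figure D4:**
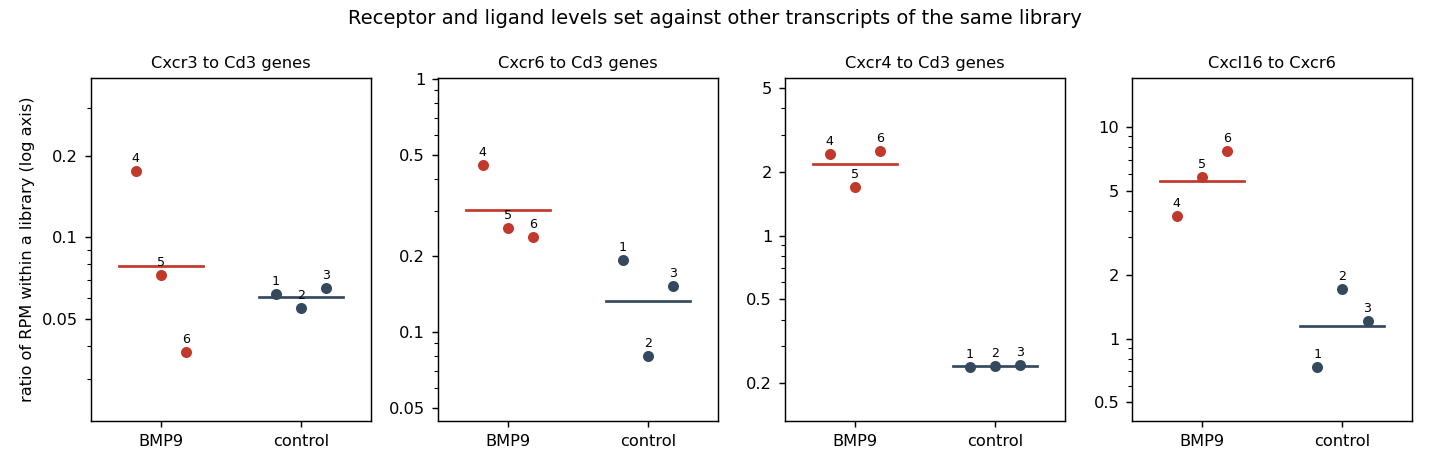
Ratios of RPM within each library (log axis) for BMP9 overexpression, left, and control libraries, right, with replicate numbers and lines at the geometric means. Cxcr6 and Cxcr4 relative to the Cd3 genes and Cxcl16 relative to Cxcr6 are higher in all BMP9 libraries, while Cxcr3 relative to the Cd3 genes overlaps. Where the groups are apart, this follows from the levels of the genes themselves.

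Cxcr4 rose, unlike the other 2 receptors. Cxcr4 (chromosome 1, 128588199 to 128592293), carried by most leukocytes and by some endothelial and tumour cells, was at 662, 436 and 618 RPM in BMP9 replicates 4, 5 and 6 and at 221, 334 and 306 RPM in control replicates 1, 2 and 3. The groups did not overlap. The log2 fold change was 0.99 (SE 0.28, 95% interval 0.40 to 1.58, adjusted p = 0.012). TMM factors gave 1.25 and the earlier stamp alone 1.23, and the call was lost without control replicate 1 (0.82, adjusted p = 0.081). Per unit of Cd3 transcripts Cxcr4 was at 1.69 to 2.52 in BMP9 libraries and at 0.239 to 0.245 in control libraries, a 9.01-fold difference (exact permutation p = 0.1). Since Cxcr4 was higher and the Cd3 genes lower in every BMP9 library, the direction of this ratio and its lack of overlap follow from the levels above. Per unit of Itgam, a denominator chosen after the values were seen, Cxcr4 was at 0.178, 0.101 and 0.154 in BMP9 libraries and at 0.525, 1.12 and 0.482 in control libraries. That ratio was lower in all BMP9 libraries, with a log2 difference of -2.22 (exact permutation p = 0.1). Itgam was at 3709 to 4301 RPM in BMP9 libraries and 299 to 634 RPM in control libraries. The direction of this ratio and its lack of overlap therefore also follow from the ranges of Cxcr4 and Itgam. Cxcl12, the ligand of Cxcr4, had 4 reads in BMP9 replicate 6 and 0 in the other 5 libraries. Ackr3, a scavenging receptor of Cxcl12, was at 4.05, 0.907 and 4.16 RPM in BMP9 libraries and at 0, 0 and 0.5 RPM in control libraries, below the filter. Tested without the filter, Ackr3 did not pass (log2 fold change 1.68, SE 0.44, limma-trend adjusted p = 0.054).

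Most of the remaining family had few reads. Of 12 further measured CXC genes 3 were tested, and Pf4, described above, was the only one that passed. Cxcl14, an attractant of monocytes and dendritic cells, averaged 8.74 RPM in BMP9 libraries and 7.31 RPM in control libraries (log2 fold change 0.27, adjusted p = 0.7). Cxcr5, the receptor that guides B cells to follicles, averaged 6.27 RPM in BMP9 libraries and 8.32 RPM in control libraries (-0.26, adjusted p = 0.73), and it overlaps Bcl9l on the opposite strand, at 32.7 to 37.5 RPM in BMP9 libraries and 114 to 154 RPM in control libraries. Cxcl5, an epithelial neutrophil attractant that lies in the same cluster as Cxcl1, reached at most 1.01 RPM in BMP9 libraries and had no read in the control libraries. Cxcl15 and Cxcl17 had at most 1 read in any library, and Cxcl13 had 1 read in a control library.

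Genes that carry the signal of chemokine receptors were called no more often than tested genes in general. Of 24 tested, 3 rose and 4 fell, against 12.7% and 22.5% of all tested genes, with a median of 0.12, and with TMM factors 4 rose and 2 fell. Rac2, the small GTPase of leukocyte migration, fell by 1.65 on the log2 scale (SE 0.30, adjusted p = 0.00061), and Prex1, an exchange factor for it, fell by 1.4. Rgs10, a brake on G protein signalling, rose by 1.05. Gnai2, the G protein subunit through which these receptors mainly act, was at 0.26 (adjusted p = 0.64).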

How the data were processed

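RPM values were deposited by the authors as 1 table, made with an Ion AmpliSeq mouse transcriptome panel, per the labels' protocols, with mm10 as genome build per the submitters' processing notes. Which aligner was run is not given in the sources used here. In the table, 100% of the nonzero values were whole multiples of 1 read within 0.05 reads, which gave the depths. Reads are PCR copies without molecular identifiers, and 3 reads corresponded to 0.106 to 2.27 RPM.

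Groups were compared over all 6 libraries on the log2(RPM + 1) scale, two-sided, using the limma-trend fit (R 4.3.3, limma 3.58.1) for genes reaching 5 RPM in 3 libraries or more, with Benjamini-Hochberg adjustment over 9460 genes and a threshold of 0.05. Adjusted p-values are from this fit except where edgeR, DESeq2 or another setting is named. Log2 fold changes are BMP9 overexpression minus control and understate changes of low genes. Whole-read count tests gave 3114 calls with edgeR 4.0.16 (quasi-likelihood) and 3317 with DESeq2 1.42.0, against 3330. Ratios within a library were compared by exact permutation over the 6 libraries.

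Groups and replicate numbers came from the titles. The descriptions carry time stamps, whose meaning the labels do not give and which are called run time stamps here, the earlier for control replicates 1, 2 and 3 and BMP9 replicate 4 and the later for BMP9 replicates 5 and 6. Members and the 15 gene lists (204 genes, 7 with no row) were chosen with earlier results of these data known. Named genes are the members, the measured CXC family and up to 3 tested genes with the smallest p of each list, besides Pecam1 and Gdf2. Cdh5, Cd163, Mmp12, Adam10, Adam17, Gnai2 and markers at 0 were named after their values were seen. Of the lists not described above, dendritic cell markers had 2 of 10 lower and B cell markers 0 of 5 called. Fibroblast and pericyte markers had 2 of 4 higher and 1 lower, and epithelial markers 1 of 3 higher. Endothelial markers had 1 of 4 higher and 1 lower, as given above. Promoter sequences are from RefSeq (GRCm38.p6) and matched 9 of 10 members by symbol.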

Additional observations from a re-analysis of the deposited data

How the results depend on the processing

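All 18 alternatives called Cxcl2, Cxcl3, Ppbp and Cxcl16, as did all 17 that tested Cxcl1, which a mean of at least 20 RPM removed. Over 13 genes, 195 of 231 values kept direction and call, 15 lost the call, 6 gained it and 15 changed sign. Genes called lower, 2130 as reported, numbered 1383 with TMM and 3351 with array weights, and 1367 to 2312 without single libraries, the lowest without control replicate 1. Members called lower, 2 as reported, numbered 0 without the filter and with the stamp as a covariate, and 1 with TMM, within the earlier stamp (Cxcl9, in place of Cxcr3 and Cxcr6) and with edgeR or DESeq2, and 1 to 2 without single libraries. Without the filter, which tests 18274 genes, the calls of Cxcr3 (-1.73, adjusted p = 0.089), Cxcr4 (0.99, adjusted p = 0.054) and Cxcr6 (-0.98, adjusted p = 0.13) were lost. Array weights called Cxcr5 lower (-1.16), so other CXC genes called lower numbered 1 in place of 0.

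Without single libraries Cxcl9 ranged from -1.43 to 0.47, Cxcl14 from -0.26 to 0.71 and Cxcr5 from -0.90 to 0.10. Cxcl9 changed sign without BMP9 replicate 4 (0.47) or 6 (0.18), without control replicate 2 (0.11) and with edgeR (0.87) or DESeq2 (0.83). Cxcl10 was at -0.48 with the stamp as a covariate and within the earlier stamp. Cxcl14 was at -0.04 without BMP9 replicate 4 and -0.26 without control replicate 3. Cxcr5 was at 0.032 after quantile normalization, 0.56 under both stamp settings, 0.08 without BMP9 replicate 6, and 0.02 or 0.10 without control replicate 1 or 3. The log2 differences of the Cxcr3 and Cxcr6 ratios to Cd3 genes, 0.38 and 1.18, were 1.53 and 1.78 within the earlier stamp, whose lone BMP9 library is assumed to vary like the control libraries. After the data were seen, the ligand to Itgam difference (0.17) was recomputed for Cxcl1 (1.68), Cxcl2 (-0.093) and Cxcl3 (1.31) alone, and Cxcr4 was set against Itgam (-2.22) in place of the Cd3 genes (3.17). Apart from the settings that drop libraries or genes, the cause of these shifts was not tested. No paired analysis was possible because the groups share no replicate numbers. Control levels of Cxcl1, Cxcl3, Ppbp and Cxcr2 rest on at most 9 reads a library.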
